A study of Homo sapiens with 6 samples.

Results

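The genes that encode ATP-dependent chromatin remodelers and their subunits were followed in REH, a line of human leukemic B-cell precursors, after inhibition of CDK9. The members were taken by gene symbol alone: the SMARC, ARID, BAZ and CHD families, the INO80 and ACTL6 genes, DPF1 to DPF3, PBRM1, BRD7, BRD9, RUVBL1, RUVBL2, SRCAP and EP400. These names match 53 of the 18216 genes in the expression values. The cells were treated for 24 h with 200 nM SNS-032, a small molecule that blocks CDK9 along with some related kinases, or with the solvent DMSO alone, and each group has 3 libraries. REH is a single cell line, and whether the 3 libraries of a group came from separate cultures is not said for these libraries (the methods speak of independent experiments only in general), so the p-values measure the spread between libraries, which may be technical. Levels are FPKM, fragments scaled to transcript length and to the mapped total of the library.

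Remodelers use the energy of ATP to slide, evict or exchange nucleosomes, and so set which stretches of DNA are open to polymerases and transcription factors. They fall into families by their SNF2-type ATPase. SWI/SNF complexes open chromatin at enhancers and promoters, ISWI complexes space nucleosomes, CHD proteins carry chromodomains that bind histone tails and include the ATPases of the repressive NuRD complex, and the INO80 family exchanges histone variants such as H2A.Z. Subunits of SWI/SNF, and CHD4 among others, are recurrently mutated in human cancers. CDK9, the kinase of P-TEFb, phosphorylates RNA polymerase II and lets it pass from pausing into elongation.

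The B-lineage markers CD79A, CD79B, CD22, PAX5, EBF1, VPREB1, DNTT and BLNK were measured in each library. After SNS-032, VPREB1 was 4.24-fold, DNTT 2.34-fold, CD79B 2.32-fold and PAX5 1.30-fold lower, CD22 fell from 57.4, 61.02 and 58.3 to 30.6, 28.3 and 29.5 FPKM, CD79A was 1.53-fold and EBF1 1.11-fold higher, and BLNK did not pass. The 3 measured T cell markers summed to 0.27 to 0.32 FPKM in DMSO libraries and 2.07 to 3.85 in treated ones, nearly all of it CD3G, while CD3D and CD3E were at or near 0. The 5 myeloid markers summed to 8.20 to 8.65 FPKM in DMSO libraries and 18.7 to 21.6 in treated ones, with MPO under 0.2 in each library. Of these, LYZ and CD14 were higher after SNS-032 and CSF1R, the largest share of the sum with DMSO, was 4.64-fold lower. The 2 measured erythroid and megakaryocyte markers stayed under 0.3 FPKM in sum. Their part in the results was not tested. FPKM are relative to the total of a library, so fewer cells of a kind and less RNA per cell cannot be told apart. Summed FPKM per library ranged from 457826 to 491886, and the depth in reads is unknown because the values are rounded FPKM.

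After SNS-032, transcripts of most chromatin remodelers were lower relative to the total of their library. Because FPKM are relative, lower, higher and unchanged here do not give the amount of RNA per cell. Of the 53 members, 45 reached a group mean of 1 FPKM with DMSO or SNS-032 and were tested. Of these, 32 were lower and 9 higher at an adjusted p under 0.05 from limma, and 4 did not pass. Across all 12239 genes tested, 49.3% were lower and 39.9% higher (89.2% in either direction), against 71.1% and 20.0% of the members. The median log2 fold change was −0.77 for the members and −0.14 for all genes. Log2 fold changes are on log2(FPKM + 1), which understates the change of low genes, while values given as "-fold" are ratios of the mean FPKM with nothing added. Among the 6376 genes that averaged 10 FPKM or more over all libraries, 57.3% were lower and 33.2% higher, and their median was −0.33. Of the 39 members at that level, 28 were lower and 7 higher. This cut on the level was chosen after the data were seen. The members summed to between 1827 and 1850 FPKM in the DMSO libraries and between 1194 and 1262 FPKM in the SNS-032 libraries, or 0.393% to 0.404% and 0.243% to 0.268% of each library's total.

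The falls were moderate. The log2 fold changes reached from −1.96 for SRCAP to 2.46 for CHD2. A log2 fold change of −1 or less was found for 14 of the 45 members, against 19.5% of all genes, and one of 1 or more for 3 members against 16.6%. At the thresholds of the study, adjusted p under 0.001 with a log2 change of 2 or more in size, no member was lower and CHD2 alone was higher, where 2.43% of all genes were lower and 3.52% higher. That no member was lower rests on the 1 FPKM added. With 0.1 added, the log2 fold change of SRCAP was −2.10 and the log2 fold change of SMARCA2 was −2.05, both past these thresholds, and with libraries scaled to a total of 1e+06 these genes and ACTL6A passed them. The libraries of the groups did not overlap for each of the 41 members that passed, 32 with all SNS-032 libraries below DMSO and 9 with all above, against 49.5% and 40.2% of all genes. Of all genes tested, 2.70% had a log2 fold change below that of SRCAP, and 98.1% one below that of CHD2.

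**Figure D1:**
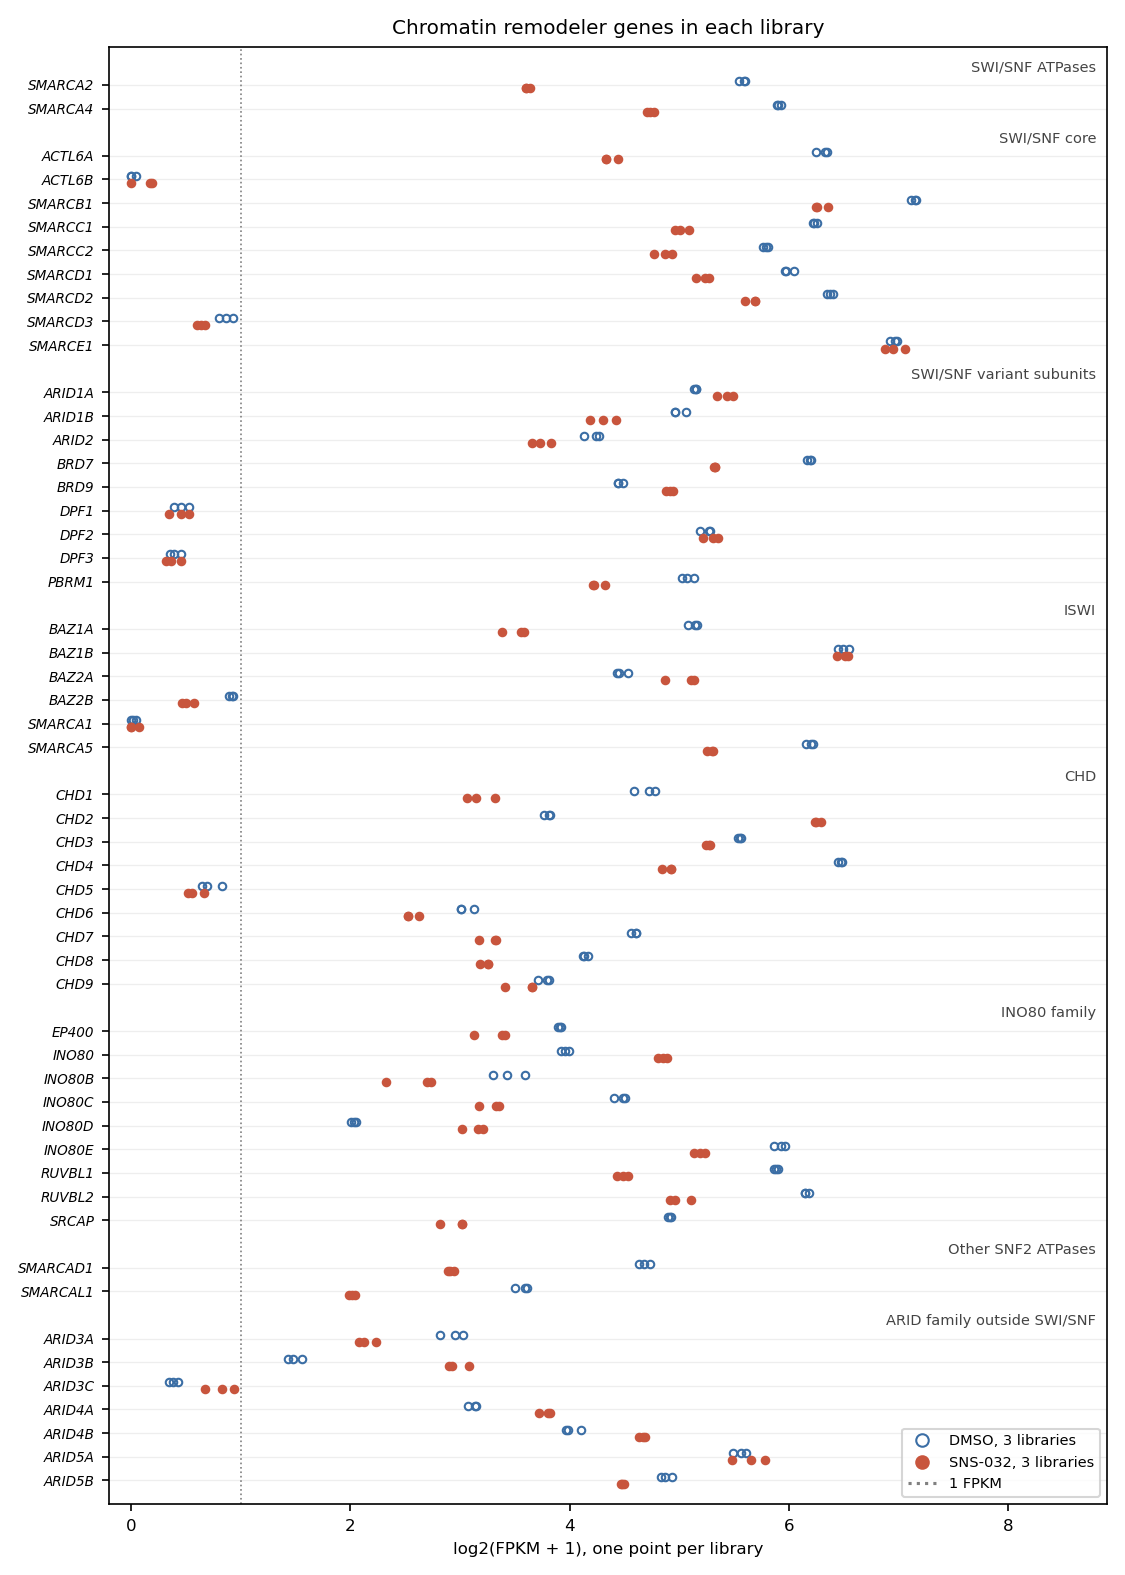
Level of each of the 53 remodeler genes in the 6 libraries, as log2(FPKM + 1), in rows grouped by complex; open blue points are DMSO and filled red points SNS-032 libraries, and the dotted line marks 1 FPKM. The points of a group lie close together, most red points lie to the left of the blue ones, and CHD2, INO80, INO80D and ARID3B stand out on the other side.

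**Figure D2:**
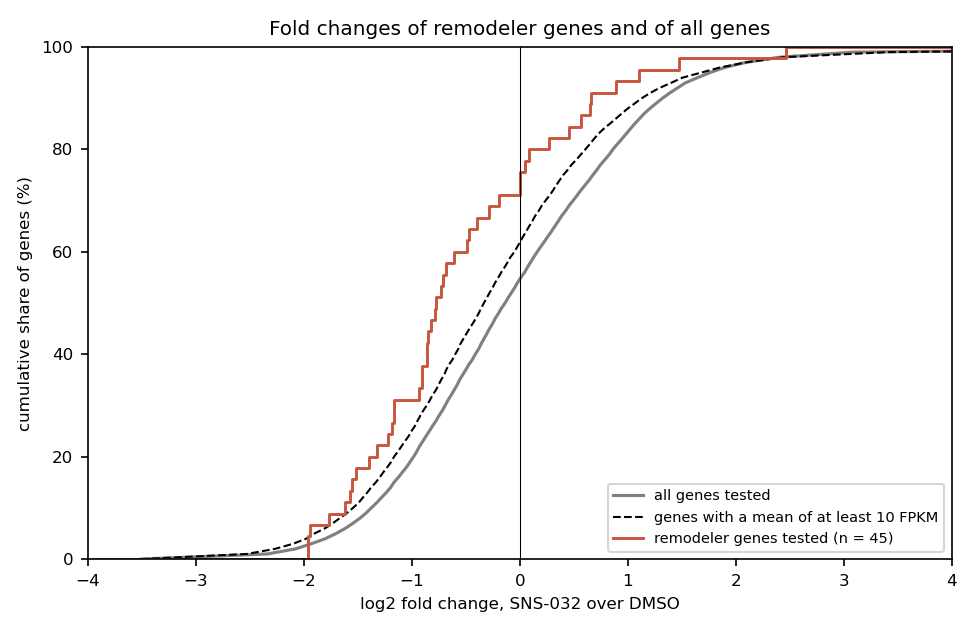
Cumulative share of genes (%) against the log2 fold change of SNS-032 over DMSO, for the 45 tested remodeler genes (red steps), all 12239 genes tested (grey) and the 6376 genes averaging 10 FPKM or more (dashed). The red curve reaches its median at −0.77, left of the grey curve at −0.14 and the dashed curve at −0.33. The ends beyond 4 in either direction are outside the axis.

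The promoter windows of the largest changes are shown so that the start-site sequence of rising and falling members can be set side by side. Windows reach from 250 bases before to 50 bases after the most upstream start of the gene, are RefSeq sequences of GRCh38.p14, and were found for 36 of the 45 tested members. Those printed belong to the 2 largest rises and the 2 largest falls that have a window. ARID3B, the second largest rise, has none. Capitals mark a GC box (GGGCGG) or an ETS site (CCGGAAG) on either strand.
CHD2 (chr15:92900074-92900373, plus strand): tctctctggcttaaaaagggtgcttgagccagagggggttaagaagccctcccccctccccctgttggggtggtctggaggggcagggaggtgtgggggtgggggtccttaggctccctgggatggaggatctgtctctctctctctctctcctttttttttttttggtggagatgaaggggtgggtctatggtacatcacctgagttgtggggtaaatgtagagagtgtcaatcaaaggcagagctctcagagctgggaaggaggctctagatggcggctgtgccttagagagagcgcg
INO80D (chr2:206086125-206086424, minus strand): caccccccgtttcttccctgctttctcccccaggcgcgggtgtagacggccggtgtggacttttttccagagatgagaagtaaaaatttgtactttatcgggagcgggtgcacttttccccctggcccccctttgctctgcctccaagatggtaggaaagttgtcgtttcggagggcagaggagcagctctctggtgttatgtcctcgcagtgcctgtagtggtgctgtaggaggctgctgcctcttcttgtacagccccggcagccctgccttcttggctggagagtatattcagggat
SRCAP (chr16:30698921-30699220, plus strand): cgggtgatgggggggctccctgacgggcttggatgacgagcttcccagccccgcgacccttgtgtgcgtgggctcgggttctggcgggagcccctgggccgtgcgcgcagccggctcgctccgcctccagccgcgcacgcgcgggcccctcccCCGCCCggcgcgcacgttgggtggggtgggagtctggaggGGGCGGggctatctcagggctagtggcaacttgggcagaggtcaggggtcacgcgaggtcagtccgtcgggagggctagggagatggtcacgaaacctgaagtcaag
SMARCA2 (chr9:2015097-2015396, plus strand): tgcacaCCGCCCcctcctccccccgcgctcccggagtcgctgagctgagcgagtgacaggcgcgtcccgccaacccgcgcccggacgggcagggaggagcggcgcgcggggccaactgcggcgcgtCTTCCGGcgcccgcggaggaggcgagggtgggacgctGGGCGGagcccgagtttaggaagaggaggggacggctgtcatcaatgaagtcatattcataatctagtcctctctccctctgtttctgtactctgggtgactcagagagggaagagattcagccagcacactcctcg
The windows of the rising CHD2 and INO80D hold 3 and 11 CpG dinucleotides and no GC box, and those of the falling SRCAP and SMARCA2 hold 30 each. For each of these genes the GENCODE start differs from that of RefSeq. It lies inside the windows of CHD2 (92900189) and INO80D (206086303). For SMARCA2 (1980290) and SRCAP (30698209) it lies upstream of the window, so these windows fall within the GENCODE spans. INO80, which also rose, had 30 CpG as well. Over all members the split was small, with a median of 21.0 CpG in 8 windows of members that rose, 28.0 in 24 windows of members that fell and 26.0 in 9950 windows of all genes tested. The GC box was in 5 of the 8 and in 18 of the 24 windows, in 68.6% of windows of all genes tested and in 44.5% of all 27305 windows. The ETS site was in 1 and 5 of them, in 20% of windows of genes tested and in 10.6% of all windows. The E-box CACGTG, bound by MYC and MAX, was in 0 of the 8 and 2 of the 24 windows, in 10.2% of windows of genes tested and in 7.41% of all. The CCAAT box (CCAAT) was in 1 and 7 of them, in 37.5% of windows of genes tested and in 35.7% of all. The TATA box (TATAAA) was in 0 and 2, in 5.95% of windows of genes tested and in 12% of all. The CRE (TGACGTCA) was in none, in 3.23% of windows of genes tested and in 1.97% of all. Both strands were searched for exact letters, no motif contains another, and ends of a GC box and an ETS site may overlap. A match is a description of the letters only.

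Both ATPases of SWI/SNF were lower. SMARCA2, the BRM ATPase (Entrez gene 6595), was at 47.5, 45.8 and 47.04 FPKM in the DMSO libraries and 11.5, 11.1 and 11.2 FPKM with SNS-032. It fell 4.15-fold, with a log2 fold change of −1.96 (standard error 0.0479, adjusted p = 5.61e-12 from limma). SMARCA4, the BRG1 ATPase (Entrez gene 6597), was at 59.7, 58.4 and 58.8 FPKM with DMSO and 25.1, 26.3 and 25.7 FPKM with SNS-032. It fell 2.30-fold, with a log2 fold change of −1.17 (standard error 0.0441, adjusted p = 1.62e-10). The ATPases occupy the same place in the complex, one at a time. SMARCA4 made up 55.5% to 56.1% of their summed FPKM in the DMSO libraries and 68.6% to 70.3% in the SNS-032 libraries. In GRCh38 the SMARCA2 gene spans 1980290 to 2193624 of chromosome 9, and SMARCA4 on chromosome 19 runs from 10960825 to 11079426, in GENCODE 29.

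Among the 9 core subunit genes, 7 were tested and 6 of them fell, where 49.3% of all genes were lower. ACTL6A, the actin-related protein BAF53A that SWI/SNF shares with INO80 and TIP60 complexes, fell most, from 79.5, 75.1 and 80.4 FPKM with DMSO to 20.7, 19.2 and 19.2 FPKM with SNS-032. Its log2 fold change was −1.94 (standard error 0.0503, adjusted p = 8.4e-12), larger than that of the other core subunits. The scaffold subunits SMARCC1 and SMARCC2 had log2 fold changes of −1.22 and −0.94, SMARCB1, the tumor suppressor SNF5, −0.85, and SMARCD1 and SMARCD2 −0.77 and −0.72. None of these 5 overlapped between the groups, where 49.5% of all genes tested lay below without overlap. SMARCE1, an HMG-box subunit, did not fall with them. It was at 124, 120.5 and 126 FPKM with DMSO and 116, 122 and 132 FPKM with SNS-032, with overlapping libraries and a log2 fold change of 0.002 (standard error 0.0489, adjusted p = 0.968). With libraries scaled to their median ratio it passed as higher (0.28, adjusted p = 0.000231). The neuronal subunit ACTL6B was at 0.14 FPKM or less and SMARCD3, best known from muscle and heart, at 0.91 FPKM or less in each library, and neither was tested.

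The variant subunits, which sort SWI/SNF into its assemblies, went in both directions, with 4 lower, 2 higher and 1 that did not pass among 7 tested. That is 57.1% lower and 28.6% higher, against 49.3% and 39.9% of all genes. ARID1A and ARID1B, the alternative DNA-binding subunits of canonical BAF, parted. ARID1A was at 34.1, 34.6 and 34.6 FPKM with DMSO and 39.7, 43.8 and 42.1 FPKM with SNS-032, a log2 fold change of 0.27 (standard error 0.049, adjusted p = 0.000206). ARID1B was at 32.3, 30.1 and 30.1 FPKM with DMSO and 17.2, 20.4 and 18.8 FPKM with SNS-032, a log2 fold change of −0.69 (standard error 0.0646, adjusted p = 6.14e-07). The levels of ARID1A and ARID1B were thus similar with DMSO, and ARID1A stood well above ARID1B in each treated library.

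The members that set PBAF, the polybromo-containing assembly, apart from other SWI/SNF complexes were lower. PBRM1, its polybromo subunit, had a log2 fold change of −0.82, BRD7, a bromodomain subunit, −0.86, and ARID2 −0.47. BRD9, the bromodomain protein of non-canonical BAF, rose from 20.7, 20.7 and 21.4 FPKM with DMSO to 29.2, 29.7 and 28.4 FPKM with SNS-032, a log2 fold change of 0.46 (standard error 0.0478, adjusted p = 1.61e-06). DPF2, a PHD-finger reader of acylated histones, was at 37.8, 37.6 and 35.5 FPKM with DMSO and 36.2, 39.9 and 38.5 FPKM with SNS-032, with overlapping libraries and a log2 fold change of 0.05 (adjusted p = 0.402), and passed as higher at the median ratio (0.31, adjusted p = 8.6e-05). Its paralogues DPF1 and DPF3 were at or under 0.44 FPKM in each library.

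**Figure D3:**
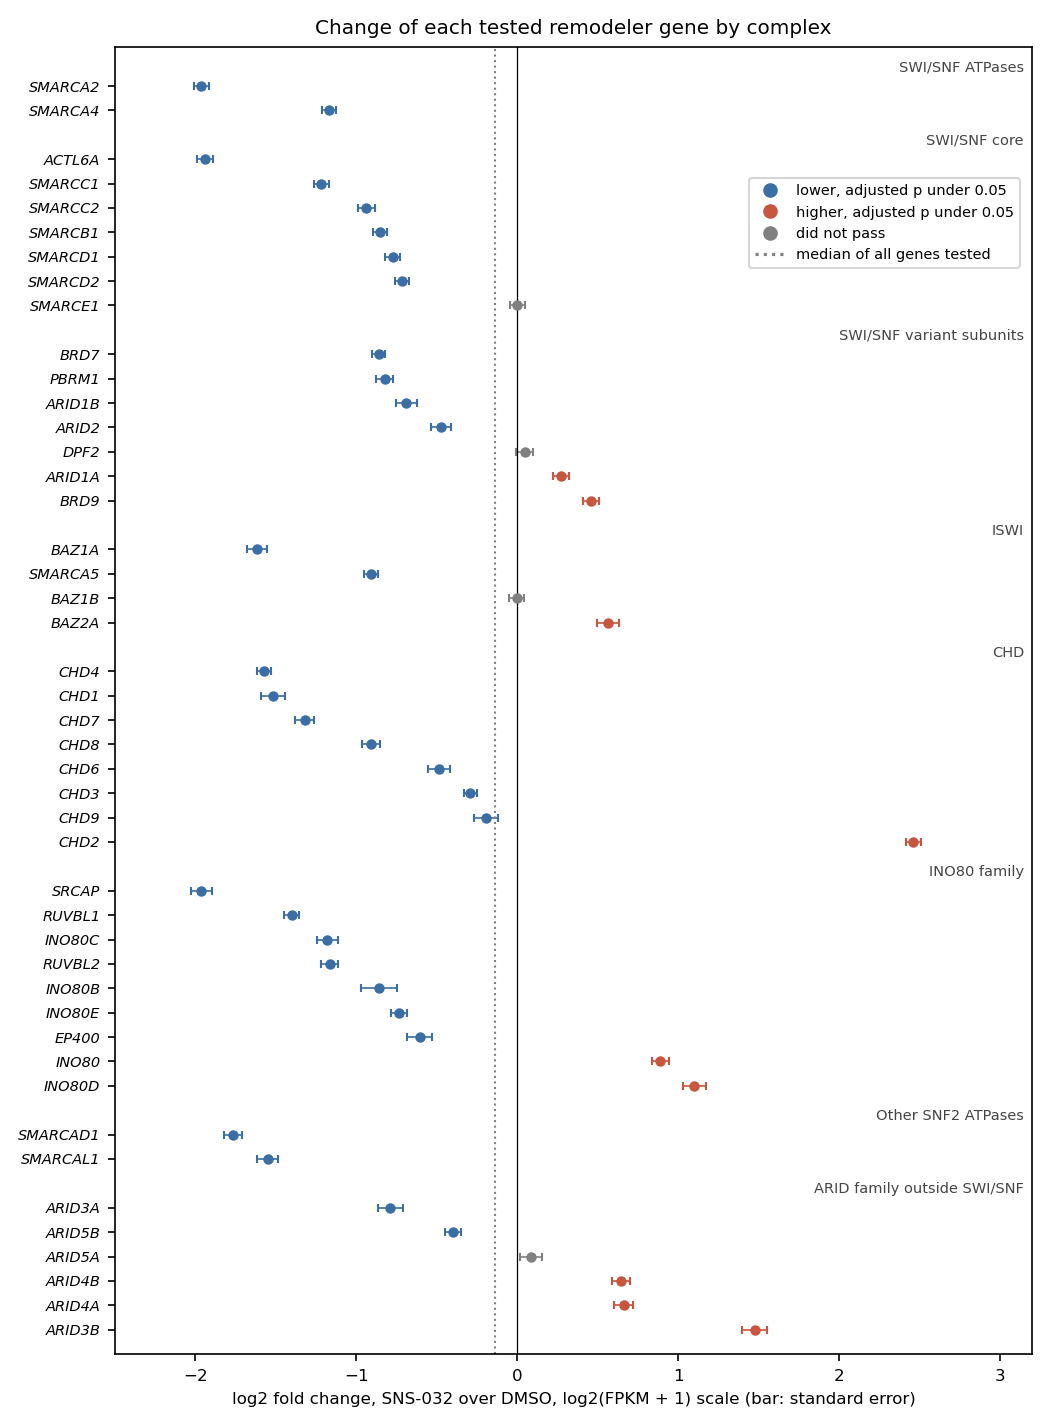
Log2 fold change of SNS-032 over DMSO for the 45 tested remodeler genes with its standard error, in rows by complex and ordered by size within it; blue points were lower, red points higher and grey points did not pass, and the dotted line is the median of all genes tested at −0.14. SWI/SNF ATPases and the other SNF2 ATPases hold only falls, while CHD2, at 2.46, is set apart from the 7 CHD genes that fell.

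ISWI remodelers went in both directions, with 2 lower, 1 higher and 1 that did not pass among 4 tested. Of all genes, 49.3% were lower and 39.9% higher, so the ISWI share of lower genes was close to that of all genes. SMARCA5, the ISWI ATPase SNF2H, went from 73.6, 70.1 and 72.7 FPKM with DMSO to 37.05, 38.7 and 38.3 FPKM with SNS-032, a log2 fold change of −0.91 (standard error 0.0434, adjusted p = 1.25e-09). BAZ1A, the ACF1 partner of SMARCA5, fell further, from 34.7, 32.8 and 34.4 FPKM to 10.8, 9.45 and 11 FPKM, 3.26-fold. BAZ1B, the WSTF partner of the same ATPase, was at 92.7, 86.4 and 89.1 FPKM with DMSO and 85.5, 90.2 and 92.1 FPKM with SNS-032, with overlapping libraries and a log2 fold change of −0.003 (adjusted p = 0.958), and passed as higher at the median ratio (0.27, adjusted p = 0.000128). BAZ2A, which brings SMARCA5 to ribosomal DNA in the NoRC complex, rose from 20.9, 20.5 and 22.1 to 28.2, 33.5 and 34.1 FPKM, a log2 fold change of 0.57 (adjusted p = 8.73e-06). Of these SMARCA5 partners, BAZ1A was thus lower and BAZ2A higher, and the BAZ1B libraries overlapped. SMARCA1, the other ISWI ATPase, was at 0.05 FPKM or less in each library. BAZ2B was not tested, at 0.86, 0.89 and 0.90 FPKM with DMSO and 0.42, 0.49 and 0.38 FPKM with SNS-032.

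The CHD family held the largest rise of all members, and 7 of its 8 tested genes fell, where 49.3% of all genes were lower. CHD2 (Entrez gene 1106), which works in DNA repair and the deposition of histone H3.3, was at 13.02, 12.6 and 13.1 FPKM with DMSO and 74.4, 77.6 and 75.1 FPKM with SNS-032. It rose 5.86-fold, with a log2 fold change of 2.46 (standard error 0.0461, adjusted p = 9.46e-13). CHD1, its paralogue, which follows elongating polymerase, was at 26.4, 23.01 and 25.4 FPKM with DMSO and 7.36, 7.87 and 8.95 FPKM with SNS-032, 3.10-fold lower. CHD1 was thus above CHD2 in each DMSO library, and CHD2 above CHD1 in each treated library. CHD2 lies on chromosome 15 from 92900189 to 93028005 and CHD1 on chromosome 5 from 98853985 to 98928957.

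CHD4, the main ATPase of NuRD, fell from 88.6, 88.1 and 86.4 FPKM with DMSO to 27.6, 29.3 and 29.4 FPKM with SNS-032, a log2 fold change of −1.57 (standard error 0.0444, adjusted p = 1.63e-11). CHD3, the other NuRD ATPase in these cells, fell less, from 46.1, 45.5 and 46.4 to 37.7, 36.8 and 37.8 FPKM, a log2 fold change of −0.29 (adjusted p = 3.79e-05). With libraries scaled to their median ratio, CHD3 no longer passed (log2 fold change −0.02, adjusted p = 0.651). CHD5, the neural member, was at 0.78 FPKM or less in each library and was not tested.

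Of the third subfamily, CHD7, the gene of CHARGE syndrome, was at 23.4, 23.4 and 22.6 FPKM with DMSO and 8, 9.04 and 8.99 FPKM with SNS-032, 2.67-fold lower. CHD8, known from autism, was at 16.9, 16.6 and 16.4 FPKM with DMSO and 8.08, 8.56 and 8.57 FPKM with SNS-032, 1.98-fold lower. CHD6 was at 7.72, 7.04 and 7.04 FPKM with DMSO and 4.75, 5.18 and 4.77 FPKM with SNS-032, 1.48-fold lower. The libraries of CHD6, CHD7, CHD8 and CHD9 did not overlap between the groups, where 49.5% of all genes tested lay below without overlap. CHD9 was at 12.9, 12.1 and 13 FPKM with DMSO and 9.66, 11.6 and 11.6 FPKM with SNS-032, with a log2 fold change of −0.19 (standard error 0.0736, adjusted p = 0.0255). Its call was lost without DMSO replicate 1 (giving an adjusted p of 0.0736), without DMSO replicate 3 (0.0822) and without SNS-032 replicate 1 (0.0789), and its sign turned with libraries scaled to their median ratio (0.06) or quantile normalized (0.12).

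In the INO80 family the ATPases split. INO80 itself rose from 14.1, 14.6 and 14.96 FPKM with DMSO to 28.6, 26.97 and 27.9 FPKM with SNS-032, a log2 fold change of 0.89 (standard error 0.0513, adjusted p = 6.59e-09). SRCAP, which loads H2A.Z into nucleosomes, fell from 28.8, 29.4 and 29.1 to 6.03, 7.1 and 7.09 FPKM, 4.32-fold, with a log2 fold change of −1.96 (standard error 0.0652, adjusted p = 5.69e-11). EP400, the ATPase of the TIP60 complex, fell from 14.03, 14.2 and 13.9 to 7.73, 9.63 and 9.4 FPKM, a log2 fold change of −0.61 (adjusted p = 8.89e-06). SRCAP lay well above EP400 in each DMSO library and below it in each treated one. INO80 lies on chromosome 15 from 40978880 to 41116354 and SRCAP on chromosome 16 from 30698209 to 30741409.

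The subunits of these complexes also split, with INO80D on one side. INO80D, a subunit specific to INO80, was at 3.01, 3.09 and 3.14 FPKM with DMSO and 7.09, 8.26 and 7.96 FPKM with SNS-032, 2.52-fold higher (log2 fold change 1.10, standard error 0.0721, adjusted p = 2.1e-08). INO80C, INO80B and INO80E had log2 fold changes of −1.18, −0.86 and −0.73. RUVBL1 and RUVBL2, AAA+ ATPases that build a ring shared by INO80, SRCAP and TIP60 complexes, both fell. RUVBL1 went from 57.96, 58.9 and 57.3 to 20.6, 22.1 and 21.5 FPKM, and RUVBL2 from 70, 71.7 and 69.8 to 29.2, 33.4 and 30.1 FPKM. In all, 7 of the 9 genes of the family were lower and 2 higher, against 49.3% and 39.9% of all genes.

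SMARCAD1 and SMARCAL1, SNF2 ATPases that act outside the large complexes, were among the deepest falls. SMARCAD1, which helps DNA end resection and the upkeep of heterochromatin, went from 25.6, 23.8 and 24.6 FPKM to 6.42, 6.72 and 6.5 FPKM, 3.76-fold lower (log2 fold change −1.76, standard error 0.0556, adjusted p = 3.85e-11). SMARCAL1, an annealing helicase of stalled replication forks, went from 11.2, 11.1 and 10.3 to 3.04, 2.97 and 3.12 FPKM, 3.57-fold lower (log2 fold change −1.55, standard error 0.0644, adjusted p = 3.67e-10). Taking the 18 SNF2 ATPases among the members together, 16 were tested, of which 14 were lower and 2, CHD2 and INO80, higher, where 49.3% of all genes were lower and 39.9% higher. The median log2 change of these ATPases was −1.04.

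Among the groups of members, the ARID genes outside SWI/SNF alone had a median above 0, at 0.37. Of 6 tested, 3 were higher, 2 lower and 1 did not pass, where 39.9% of all genes were higher and 49.3% lower. ARID3B, a DNA-binding paralogue of ARID3A, was at 1.95, 1.78 and 1.7 FPKM with DMSO and 6.59, 7.46 and 6.44 FPKM with SNS-032, 3.77-fold higher (log2 fold change 1.48, standard error 0.0777, adjusted p = 2.85e-09). ARID3A, the B-cell regulator Bright, went the other way, from 6.73, 7.17 and 6.07 to 3.22, 3.71 and 3.36 FPKM. ARID3C was under 1 FPKM in each library and was not tested, at 0.27, 0.35 and 0.30 FPKM with DMSO and 0.92, 0.60 and 0.78 FPKM with SNS-032, without overlap.

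ARID4A and ARID4B, RB-binding members of the SIN3 deacetylase complex, rose side by side. ARID4A was at 7.82, 7.43 and 7.83 FPKM with DMSO and 12.2, 12.9 and 13.1 FPKM with SNS-032, a log2 fold change of 0.66 (standard error 0.059, adjusted p = 3.82e-07). ARID4B was at 16.2, 14.8 and 14.6 FPKM with DMSO and 24.5, 23.8 and 24.7 FPKM with SNS-032, a log2 fold change of 0.65 (standard error 0.055, adjusted p = 2.46e-07). ARID5B, a locus of inherited risk for childhood leukemia, was at 29.5, 28.3 and 27.5 FPKM with DMSO and 21.5, 21.3 and 21.1 FPKM with SNS-032, a log2 fold change of −0.40 (adjusted p = 7.65e-06), which no longer passed after quantile normalization (−0.10, adjusted p = 0.0624). ARID5A, an RNA-binding protein known to stabilize cytokine transcripts, was at 44.02, 47.9 and 46.3 FPKM with DMSO and 43.7, 54.2 and 49.5 FPKM with SNS-032, with overlapping libraries and a log2 fold change of 0.09 (adjusted p = 0.255). Without SNS-032 replicate 1, ARID5A passed as higher (0.17, adjusted p = 0.0121), as it did at the median ratio (0.36, adjusted p = 0.000379).

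A ratio of genes within a library cancels the scaling of that library, apart from the 1 FPKM added to each value, so 15 pairs were also compared within each library. The log2 ratio of CHD1 over CHD2 went from 0.90 ± 0.0745 with DMSO to −3.08 ± 0.13 with SNS-032 (SD, n = 3 libraries each; exact permutation test, two-sided, p = 0.1). CHD3 over CHD4 went from −0.92 ± 0.0301 to 0.37 ± 0.0615 (SD, n = 3 each; exact p = 0.1), so that CHD3 turned from the lower to the higher of the NuRD ATPases. The difference in log2 ratio was −1.62 for BAZ1A over BAZ1B, −1.36 for SRCAP over EP400 and −1.32 for BRD7 over BRD9. The ratio of ARID1A over ARID1B was higher by 0.96 and that of SMARCA4 over SMARCA2 by 0.79. These pairs have the same exact p of 0.1, the smallest that 3 libraries against 3 allow, or 0.107 adjusted over the 15 pairs, so none could pass 0.05. In 14 of the 15 pairs the ratios of the groups did not overlap, among them SMARCD1 over SMARCD2 with a difference of only −0.06. Of single genes tested, 40.2% lay above and 49.5% below without overlap. ARID4A over ARID4B was the exception, with log2 ratios of −0.90 ± 0.0709 and −0.88 ± 0.059 (SD, n = 3 each; exact p = 0.9). In the pairs with SMARCA1 and BAZ2B, the second gene was under 1 FPKM and the ratio follows the first.

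**Figure D4:**
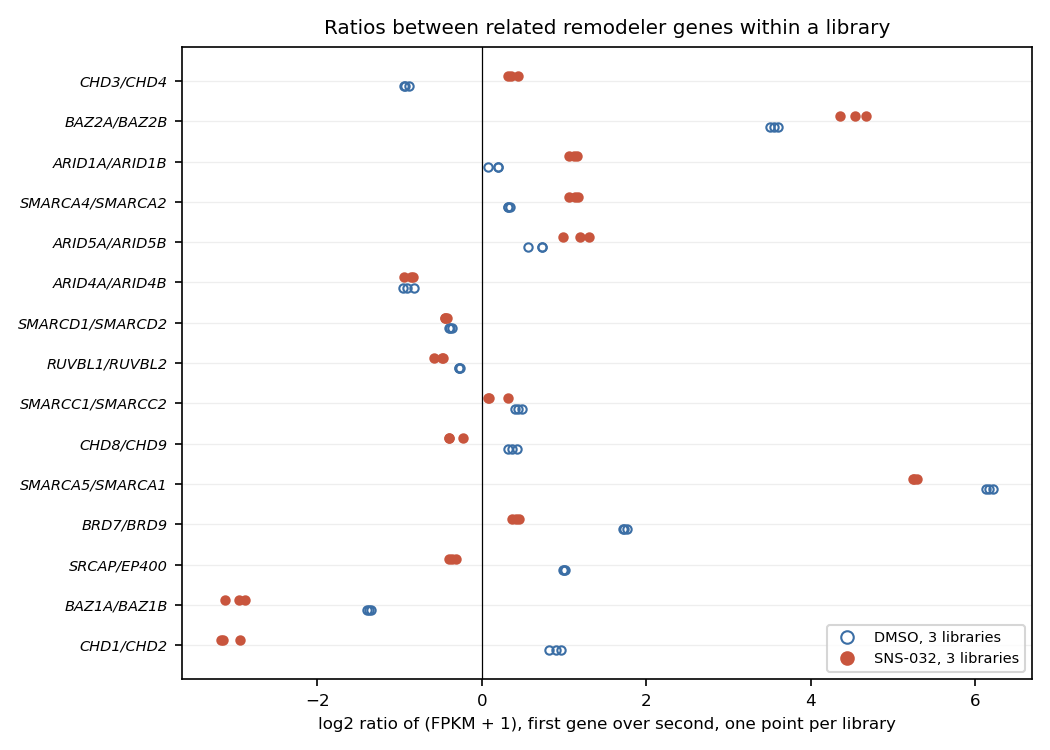
Log2 ratio of (FPKM + 1) between the genes of 15 related pairs, first gene over second, with one point per library (open blue, DMSO; filled red, SNS-032). CHD1/CHD2 shifts most, from 0.90 to −3.08, CHD3/CHD4, CHD8/CHD9 and SRCAP/EP400 also cross 0, and ARID4A/ARID4B overlaps.

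Other subunits of the same complexes, and SNF2 ATPases that the symbol rule does not take, were taken from lists written from general knowledge. Of 60 tested, 43 were lower, 14 higher and 3 passed neither side, or 71.7% and 23.3% against 49.3% and 39.9% of all genes. The 60 had a median log2 fold change of −0.62. They include 11 such ATPases, all lower, so these shares and this median are not those of the subunits alone. The subunits of INO80, SRCAP and TIP60 were mostly lower, 18 of 23 with 4 higher. VPS72, the H2A.Z chaperone of SRCAP and TIP60, fell most, from 45.0 to 6.93 FPKM (means of 3 libraries, log2 fold change −2.54), while EPC1, a scaffold of TIP60, rose from 16.9 to 39.6 FPKM (1.18). Of 5 ISWI partners, 4 were lower and POLE3 higher by 0.27. CHRAC1, the histone-fold partner of POLE3 in the CHRAC complex, fell from 68.1 to 10.4 FPKM (−2.60), so the members of that dimer went opposite ways.

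NuRD partners went both ways, with 6 lower and 4 higher of 12, close to the shares of all genes (49.3% and 39.9%). MBD3, the methyl-CpG-binding domain subunit, fell from 77.8 to 20.4 FPKM (−1.88), and GATAD2B, a scaffold, rose from 16.4 to 49.2 FPKM (1.52). SWI/SNF partners had 5 higher and 4 lower of 9 (55.6% and 44.4%), with a median log2 fold change of 0.24. BCL7A was the largest rise, from 44.0 to 93.2 FPKM (1.06), and PHF10, a PBAF subunit, the largest fall (−0.88). Of the 12 listed SNF2 ATPases that the symbol rule does not take, 11 were tested and all were lower. Their log2 fold changes ranged from −1.48 for HLTF, a translocase of replication forks, to −0.44. ERCC6L was not tested, at 0.36, 0.12 and 0.34 FPKM with DMSO and 0.54, 0.58 and 0.73 FPKM with SNS-032.

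Reads at exons that overlap another gene could be counted for either, and the use of strand in the counting is not stated. Such overlap covered 42.3% of the exon bases of BRD7 (with ADCY7), 18.8% of INO80E (with HIRIP3), 17.7% of SMARCB1 (with DERL3) and 14.5% of ARID4B (with RBM34). For the other members it was 6.01% or less for any single neighbor.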

How the data were processed

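RNA of 3 DMSO and 3 SNS-032 libraries was extracted with TRIzol and sequenced on a BGISEQ platform. According to the methods and the submitters' processing notes, reads were mapped with Bowtie2 and HISAT (HISAT2 2.0.4, build GRCh38.p12), and RSEM gave the level of each gene. The authors deposited these levels as FPKM, rounded to 2 decimals, beside 3 columns of their own fold change, p-value and q-value, which were not used. One label field spells the compound SNA-032.

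The values were analysed as log2(FPKM + 1), without rescaling. Genes whose DMSO or SNS-032 mean reached 1 FPKM entered limma 3.58.1 in R 4.3.3 (trended prior, robust) over all genes, with Benjamini-Hochberg adjustment; the counts use an adjusted p under 0.05. The steps were tested on simulated data. Pairs of genes were compared by an exact permutation test over libraries. Gene positions are from GENCODE 29 on GRCh38.

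Members were grouped by complex, and values per library are given for the 8 largest rises and falls of at least 5 FPKM, the ATPases and the members that did not pass; those of ARID1A, ARID1B, ARID3A, ARID5B, RUVBL1 and RUVBL2 were added after their values were seen, as was the comparison with genes averaging 10 FPKM or more. Partner lists give their largest rise and fall. The summed level of the B-lineage list is not reported here. The members and lists were chosen with earlier results of these data known. Alternatives were no filter on low values, a pseudocount of 0.1, scaling to a total of 1e+06 or to the median ratio, quantile normalization, a replicate block, limma without trend, and leaving out each library.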

Additional observations from a re-analysis of the deposited data

How the results depend on the processing

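The counts of 9 members higher and 32 lower were the same with a pseudocount of 0.1, with limma without trend and with the replicate number as a block (9 higher and 32 lower with the replicate block). Same-numbered libraries did not deviate together (r from −0.12 to 0.01 over genes). Deviations within groups of 3 libraries cannot settle whether the numbers pair them, and the pairing is not known. Leaving out each library gave 9 to 10 higher and 31 to 32 lower. No filter on low values gave 10 and 34, a total of 1e+06 gave 10 and 34, scaling to the median ratio 13 and 30, and quantile normalization 12 and 30. Scaling to the median ratio moved the median of all genes by 0.25, from −0.14 to 0.12, and the share of calls that were higher from 44.7% to 54.7% of all genes and from 22.0% to 30.2% of members.

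The median of the members was −0.61 with no filter, −0.50 at the median ratio, −0.59 after quantile normalization, and −0.80 to −0.73 with each library left out. Relative to the median of all genes it stayed between −0.66 and −0.56 in every setting, with −0.64 as reported. By complex, the core of SWI/SNF gained 1 higher member at the median ratio and 1 after quantile normalization (SMARCE1), ISWI had 2 higher at the median ratio, and the ARID genes 1 lower after quantile normalization. Smaller moves were CHD genes lower from 7 to 5 at the median ratio and 6 after quantile normalization, SWI/SNF variant subunits higher from 2 to 3 in both, and ARID genes higher from 3 to 4 in these, with no filter, at a total of 1e+06 and without SNS-032 replicate 1. Of the single members, those near 0 changed sign. BAZ1B had 0.27 at the median ratio and 0.0834 after quantile normalization, and −0.0267 to 0.0279 with each library left out. CHD9 had 0.059 and 0.12, and −0.24 to −0.11. DPF2 had −0.0014 at a total of 1e+06. SMARCE1 had −0.0466 there, and −0.0464 to 0.0443 with each library left out. The ratio of ARID4A over ARID4B differed by −0.016 to 0.054 with each library left out. BAZ1B, DPF2, SMARCE1 and ARID5A passed as higher at the median ratio (ARID5A 0.36). The cause was not tested. Depth is unknown, so counting error cannot be given.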

Other observations

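The remodeler genes are long. The 45 tested members had a median span of 70.9 kb and a median of 21 exons in the model with most exons (GENCODE 29), against 30.6 kb and 9 exons for 11954 of the genes tested. The members that rose had a median span of 88.9 kb, from 41.2 to 196.6 kb, and those that fell 70.8 kb, from 2.94 kb for INO80B to 434.8 kb for ARID1B. Across the 45 members, Spearman's rho between span and log2 fold change was 0.042 and between number of exons and log2 fold change −0.13. These are descriptions across genes that share the same 6 libraries. For the level with DMSO, which itself enters the fold change, rho was −0.37.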
